A study of Mus musculus with 8 samples.

Results

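The 10 hypoxia response genes examined here were Hif1a, Epas1, Vegfa, Adm, Egln3, Car9, Bnip3, Ndrg1, Ankrd37 and Ddit4. They were chosen by symbol, and all 10 were found among the 15047 gene symbols of the deposited table, so no member was lost to its filter. The pancreas of 8 male mice was profiled by RNA-Seq, and groups follow the sample labels. The LFD group held 3 C57BL/6 WT mice on a Low-Fat Diet and the HFD group 3 C57BL/6 WT mice on a High-Fat Diet with 60% of calories from fat, and both diets began at an age of 4 weeks and lasted 10 weeks. The ob/ob group held 2 mice labelled C57BL/6J; ob/ob, which lack leptin and received standard chow. The ob/ob mice were likewise assigned to their group at an age of 4 weeks. HFD and ob/ob mice together are called obese mice. According to the study, all groups carried an orthotopic graft of mT organoids, which came from tumors of mice with Pdx1-Cre, in which the Pdx1 promoter confines Cre to the pancreatic lineage. In the labels the tissue is pancreas and no graft is mentioned. Host and grafted cells are both murine, so RNA of the tumor and of the surrounding pancreas cannot be told apart. Diet and genotype cannot be told apart between ob/ob and LFD either, because the chow differed as well. The age at sampling is not given in the sources used here.

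Cells sense low oxygen through hypoxia-inducible factors (HIF). In oxygen-rich cells, prolyl hydroxylases of the Egln family mark the HIF alpha subunits, the VHL ubiquitin ligase binds the mark, and the subunits are degraded. In low oxygen the subunits persist, pair with Arnt and bind hypoxia response elements near genes of angiogenesis, pH control, glycolysis and mitophagy. Since this control acts on HIF proteins, the mRNA of Hif1a or Epas1 does not report HIF activity, and target mRNAs are the usual readout. Pancreatic tumors are known for dense stroma and poor perfusion, which is why these genes are of interest in this tissue.

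The promoter sequences of 4 members are shown because they let the reader set the letters of the hypoxia response element beside the expression values given further on. Egln3, Car9 and Ankrd37 had the largest differences between HFD and LFD among the members, whereas Bnip3, also a HIF target, differed little. Each run holds the 250 bases (for Car9 the 25 bases) before the RefSeq start site on the strand of the gene, from RefSeq on GRCm38.p6, 5′ to 3′, with the core letters ACGTG or GCGTG in capitals on either strand (CACGT and CACGC on the other). The windows are chr4:43507001-43507025 on the plus strand for Car9, and, on the minus strand, chr12:54203875-54204124 for Egln3, chr8:45999851-46000100 for Ankrd37 and chr7:138909507-138909756 for Bnip3.
Car9: tccgatgCACGTacagcccgtccac
Egln3: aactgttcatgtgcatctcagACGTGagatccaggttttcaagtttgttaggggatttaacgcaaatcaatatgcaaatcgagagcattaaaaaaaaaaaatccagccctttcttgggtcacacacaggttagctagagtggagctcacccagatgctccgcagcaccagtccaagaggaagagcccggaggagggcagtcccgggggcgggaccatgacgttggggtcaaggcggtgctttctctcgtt
Ankrd37: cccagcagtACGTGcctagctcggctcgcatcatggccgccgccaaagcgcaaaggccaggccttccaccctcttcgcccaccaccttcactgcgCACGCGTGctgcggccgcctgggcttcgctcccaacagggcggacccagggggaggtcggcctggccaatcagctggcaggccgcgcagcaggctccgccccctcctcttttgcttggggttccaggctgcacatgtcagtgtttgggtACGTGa
Bnip3: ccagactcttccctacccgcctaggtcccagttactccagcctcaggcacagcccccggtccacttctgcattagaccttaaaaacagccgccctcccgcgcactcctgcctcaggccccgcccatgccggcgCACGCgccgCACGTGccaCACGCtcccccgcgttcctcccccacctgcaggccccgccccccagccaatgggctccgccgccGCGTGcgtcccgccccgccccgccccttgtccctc
Car9 held 1 core, at position -18 from the RefSeq start, and Egln3 held 1 core, at position -229. The run of Car9 lies within the first exon of the longer Gencode M21 model, and only that stretch is shown for this reason, while 0 bases of the run of Egln3, 17 of that of Ankrd37 and 13 of that of Bnip3 lie in Gencode exons. Ankrd37 held 4 cores, of which 2 overlap in CACGCGTG, and Bnip3 held 5, of which 2 are the opposite strands of 1 CACGTG, the E-box that other factors also bind. Windows of 300 bases, from 250 before to 50 after the start, were matched for 8 of the 10 members, in 9 windows since Vegfa has 2, while Epas1 and Ndrg1 had none. At least 1 core was present in 8 of the 9 windows, against 43.8% of all 32851 promoters and 58.6% of the promoters of genes in the table. The window without a core was that of Vegfa at the start of its Gencode model (chr17:46032328-46032627). The other Vegfa window held 2 cores and lies inside the gene, with 218 of its 250 bases before the start in Gencode exons. A match is a run of letters and not a measured binding site. Between HFD and LFD, Bnip3, with 5 cores, had a log2 difference of -0.15, and Ankrd37, with 4, had one of 1.02. Car9 and Egln3, each with 1 core, had 1.57 and 1.89. Whether the number of cores goes with the difference was not tested.

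The deposited values are rlog values, which are gene counts on the log2 scale, corrected for library size and with differences between samples shrunk for genes with few reads. Sequencing depth is unknown without counts, so the spread between mice is the only error given. The median rlog value of each mouse lay between 7.09 and 7.25. The acinar markers fit the pancreas label, with all 26 listed acinar genes in the table and the lowest rlog value among them that of Ptf1a, with a mean of 7.18. Their share of the summed linear values was 58.8% to 60.5% in LFD, 20.5% to 57.7% in HFD and 23.0% to 55.3% in ob/ob mice. HFD replicate 3 and ob/ob replicate 2 had the lowest shares, HFD replicate 2 had 38.6%, and HFD replicate 1 was next to the LFD mice. In bulk tissue, fewer cells of a type and less RNA per cell cannot be told apart.

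**Figure D1:**
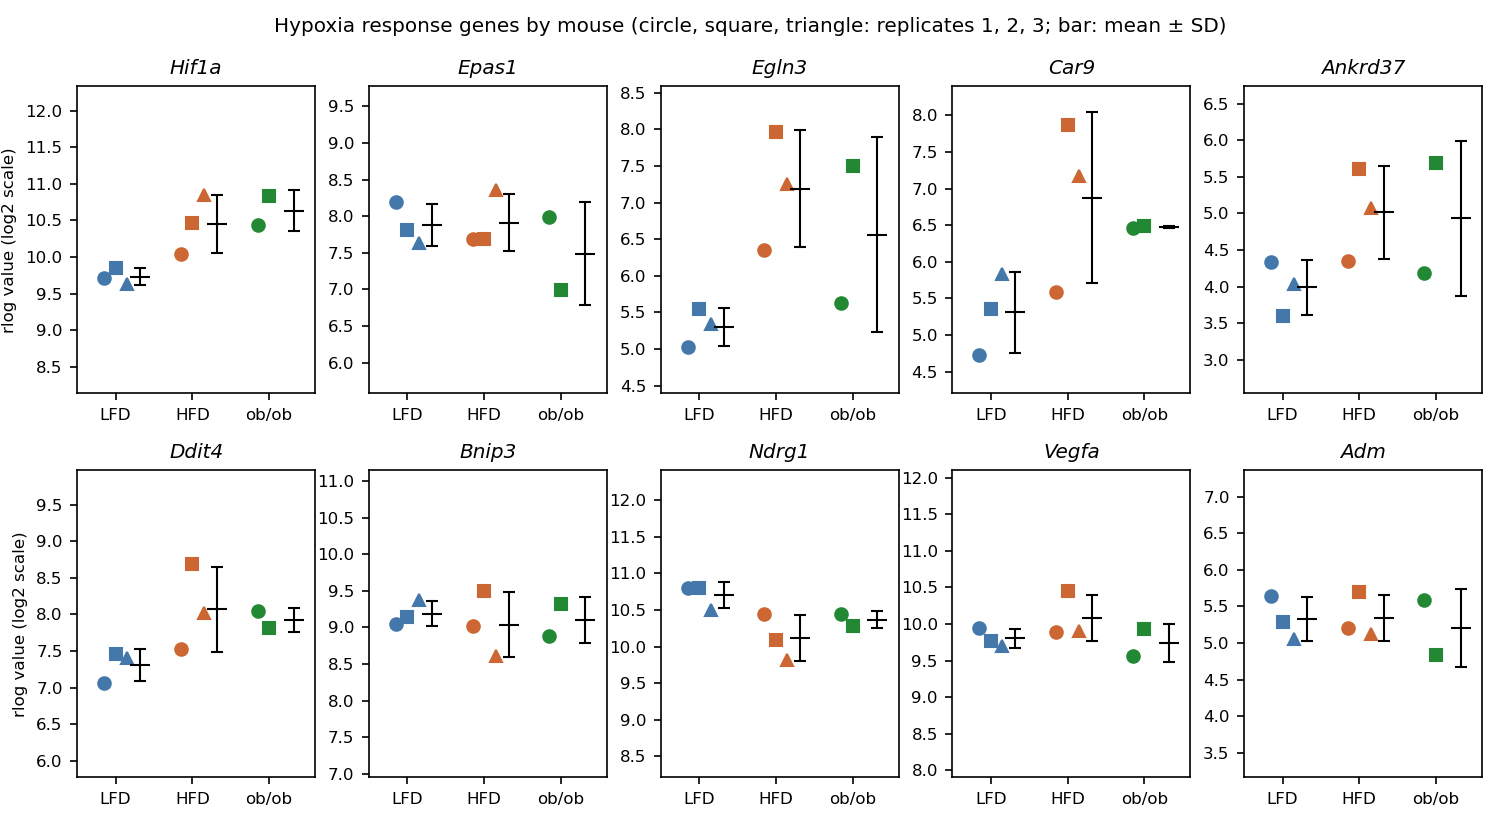
Rlog value (log2 scale) of each hypoxia response gene in every mouse, with LFD in blue, HFD in orange and ob/ob in green, and the mean ± SD of each group in black. All panels span the same number of log2 units around the gene, so distances compare between panels while absolute levels do not. Hif1a, Egln3 and Ddit4 lie above the LFD range in all 5 obese mice and Ndrg1 lies below it.

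Between HFD and LFD, the 10 genes split into those with higher group means in HFD (Egln3, Car9, Ankrd37, Ddit4 and Hif1a), 1 with a lower mean (Ndrg1), and 4 with differences under 0.3 in size (Vegfa, Adm, Epas1 and Bnip3). With limma, 0 of the 10 passed an adjusted p of 0.05 over all genes, as for 0.0% of the table, and the smallest was 0.18 for Egln3. At a nominal p under 0.05, which is not adjusted for the number of genes, 4 members were higher and 1 lower in HFD, against 11.5% of all genes higher and 8.35% lower (19.8% in all). The groups did not overlap for 5 members, 4 above and 1 below the LFD mice, against 25.2% of all genes (12.9% above and 12.3% below). The median log2 difference of the 10 was 0.50, and that of all genes was 0.029.

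For ob/ob against LFD, the log2 differences of Egln3, Car9, Ankrd37, Hif1a and Ddit4 lay between 0.62 and 1.26, and those of the other members lay between -0.39 and -0.060. At a nominal p under 0.05 in limma, 1 member (Hif1a, higher) was called, against 18.8% of all genes (11.6% higher and 7.18% lower), and 0 members passed after adjustment (0.0% of all genes). The 2 ob/ob mice lay above all LFD mice for Hif1a, Egln3, Car9 and Ddit4 and below them for Ndrg1, 5 of 10 members, against 45.9% of all genes (24.1% above and 21.8% below). The median log2 difference was 0.28 for the members and 0.039 for all genes. Both comparisons use the same LFD mice. Counting the 5 obese mice together, all of them lay above all LFD mice for 3 members (Hif1a, Egln3 and Ddit4), where 9.4% of all genes did, and below them for 1 member (Ndrg1), where 9.05% did (18.4% in all).

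**Figure D2:**
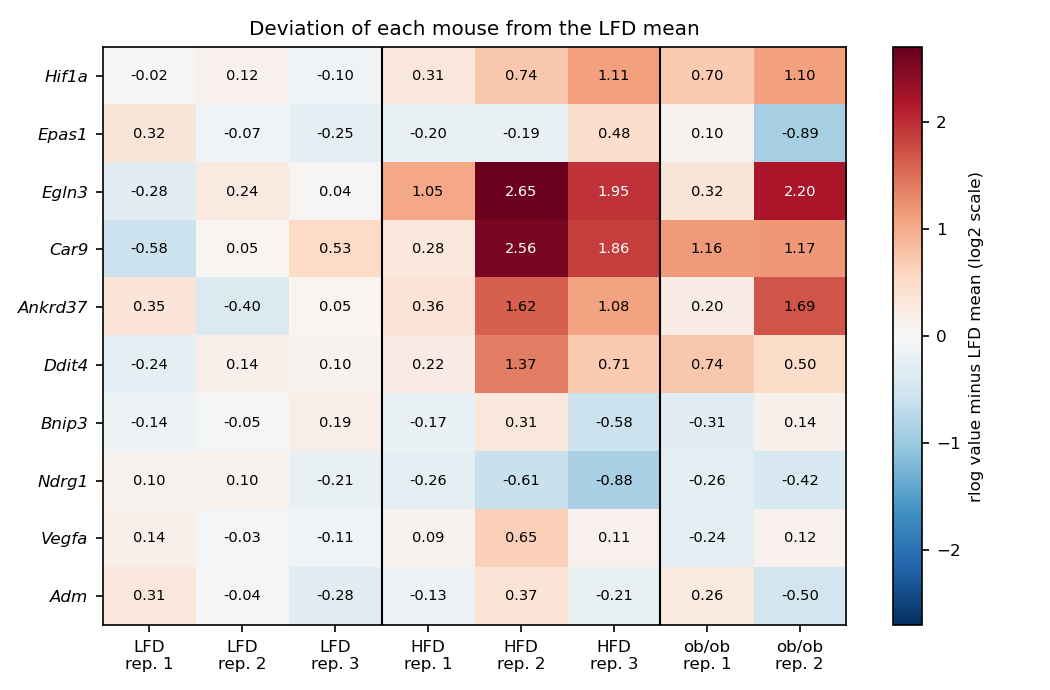
Rlog value of each mouse minus the mean of the 3 LFD mice (log2 scale), with red above and blue below that mean and the number in each cell. HFD replicate 2, HFD replicate 3 and ob/ob replicate 2 hold the largest deviations, such as 2.65, 1.95 and 2.20 for Egln3, and HFD replicate 1 is nearer to the LFD mice, with 1.05.

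The mice of 1 group were not alike in these genes. HFD replicate 2 held the highest value of all 8 mice for 6 of the 10 members. The median size of the deviation from the LFD mean over the 10 genes was 0.24 in HFD replicate 1, 0.69 in HFD replicate 2 and 0.79 in HFD replicate 3. In ob/ob replicates 1 and 2 it was 0.28 and 0.69. Neither the count of highest values nor these medians were computed over all genes, so neither is particular to the members. HFD replicate 2 lay above the LFD range for 8 members, all except Epas1 and Ndrg1, where 38.2% of all genes did, and below it for 1, where 32.9% did. HFD replicate 3 lay above it for 6 members and below it for 2, where 39.7% and 36.2% of all genes did. HFD replicate 1 lay above it for 4 and below it for 2, where 26.4% and 27.8% of all genes did. For ob/ob replicate 1 the counts were 4 above and 3 below, where 31.2% and 30.0% of all genes were. For ob/ob replicate 2 they were 5 above and 3 below, where 41.2% and 34.8% of all genes were. HFD replicate 2 was thus the mouse with the most members above the LFD range.

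Of the HIF alpha subunits, Hif1a encodes the broadly expressed subunit and Epas1 encodes HIF-2 alpha, known for its expression in endothelial cells. Hif1a (chromosome 12 of GRCm38, 73901375 to 73947530, Gencode M21) had rlog values of 9.71, 9.85 and 9.63 in LFD replicates 1 to 3, of 10.05, 10.47 and 10.84 in HFD replicates 1 to 3, and of 10.43 and 10.84 in ob/ob replicates 1 and 2. Every obese mouse lay above every LFD mouse, and the LFD mice were close together (9.73 ± 0.11, SD, n = 3). The log2 difference was 0.72 for HFD against LFD (standard error 0.23, adjusted p = 0.192 with limma) and 0.90 for ob/ob against LFD (standard error 0.25, adjusted p = 0.195 with limma). These differences correspond to 1.65-fold and 1.87-fold on the rlog scale. Without ob/ob replicate 2 the second difference was 0.70 and no longer had a nominal p under 0.05. Hif1a overlaps the gene models Gm49321 on the same strand and Gm15283 on the opposite strand, neither of which is in the table, and reads shared with them cannot be told apart. Epas1 (chromosome 17, 86753700 to 86833410) had values of 8.20, 7.81 and 7.63 in LFD, of 7.68, 7.69 and 8.36 in HFD, and of 7.99 and 6.99 in ob/ob mice. The groups overlapped, and the highest and the lowest value were those of the 2 mice with the fewest acinar transcripts, HFD replicate 3 and ob/ob replicate 2. The log2 difference of Epas1 between HFD and LFD was 0.030, with a 95% interval from -0.68 to 0.74, and that between ob/ob and LFD was -0.39, with an interval from -1.19 to 0.41. The sign of the first changed when each mouse was centred on its median, to -0.052.

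Egln3 and Car9 are the members that act on oxygen and pH. Egln3 encodes a prolyl hydroxylase that marks HIF alpha subunits for degradation and is itself induced by HIF, a feedback loop. Egln3 (chromosome 12, 54178981 to 54203860) had rlog values of 5.03, 5.54 and 5.34 in LFD, of 6.36, 7.96 and 7.26 in HFD, and of 5.62 and 7.50 in ob/ob mice. All 3 HFD mice stood well above the LFD mice, whereas ob/ob replicate 1 was only just above them. The log2 difference was 1.89 for HFD against LFD (standard error 0.53, adjusted p = 0.18 with limma), the largest of the 10 members, and 1.26 for ob/ob against LFD (standard error 0.60, adjusted p = 0.284 with limma). The second difference was 0.32 without ob/ob replicate 2 and 2.20 without ob/ob replicate 1. Car9 encodes carbonic anhydrase 9, a membrane enzyme that acidifies the space around hypoxic cells and is among the most specific HIF-1 targets. Car9 (chromosome 4, 43506966 to 43513729) had values of 4.73, 5.36 and 5.84 in LFD, of 5.59, 7.87 and 7.17 in HFD, and of 6.47 and 6.48 in ob/ob mice. HFD replicate 1 lay within the LFD range, while HFD replicates 2 and 3 and both ob/ob mice lay above it. The log2 difference of Car9 was 1.57 for HFD against LFD (standard error 0.55, adjusted p = 0.204 with limma) and 1.17 for ob/ob against LFD (standard error 0.61, adjusted p = 0.319 with limma). Car9 spanned 3.14 log2 units over the 8 mice, more than 96.6% of all genes, and Egln3 spanned 2.93, more than 95.3%.

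Ankrd37 and Ddit4 are intracellular targets that stood higher in the obese mice. Ankrd37 encodes an ankyrin repeat protein and is a recurrent member of hypoxia signatures. Ankrd37 (chromosome 8, 45996902 to 46005707) had rlog values of 4.34, 3.60 and 4.04 in LFD, of 4.35, 5.61 and 5.07 in HFD, and of 4.19 and 5.69 in ob/ob mice. HFD replicate 1 exceeded the highest LFD mouse only marginally and ob/ob replicate 1 lay within the LFD range, so that the higher values were those of 3 of the 5 obese mice. The log2 difference was 1.02 for HFD against LFD (standard error 0.47, adjusted p = 0.269 with limma) and 0.95 for ob/ob against LFD (standard error 0.53, adjusted p = 0.338 with limma). The second difference was 0.20 without ob/ob replicate 2 and 1.69 without ob/ob replicate 1. Ankrd37 had a mean under 5, where rlog shrinks differences most. The gene overlaps Ufsp2 and Lrp2bp on the opposite strand, and Lrp2bp is not in the table. Whether the libraries kept the strand is not given in the sources used here. The log2 difference of Ufsp2 between HFD and LFD was -0.55, opposite in sign to that of Ankrd37. Ddit4 encodes REDD1, an inhibitor of mTORC1 that is induced by hypoxia and also by glucocorticoids and by ATF4. Ddit4 (chromosome 10, 59949669 to 59951834) had values of 7.06, 7.45 and 7.41 in LFD, of 7.52, 8.68 and 8.01 in HFD, and of 8.04 and 7.81 in ob/ob mice. All 5 obese mice lay above all LFD mice, HFD replicate 1 by the smallest margin. The log2 difference of Ddit4 was 0.76 for HFD against LFD (standard error 0.29, adjusted p = 0.22 with limma) and 0.62 for ob/ob against LFD (standard error 0.33, adjusted p = 0.321 with limma). Without HFD replicate 2 the first difference was 0.46.

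Bnip3 and Ndrg1, also known as HIF targets, had differences near 0 or below it. Bnip3 encodes a mitochondrial outer membrane protein that recruits mitochondria to autophagy. Bnip3 (chromosome 7, 138890836 to 138909519) had rlog values of 9.05, 9.14 and 9.37 in LFD, of 9.01, 9.49 and 8.61 in HFD, and of 8.88 and 9.32 in ob/ob mice. The HFD mice held both the highest and the lowest value of Bnip3 and the groups overlapped. Its log2 difference was -0.15 for HFD against LFD, with a 95% interval from -0.71 to 0.41, and -0.085 for ob/ob against LFD, with an interval from -0.71 to 0.54. Ndrg1 encodes a protein of differentiation and stress that hypoxia raises in many cell types. Ndrg1 (chromosome 15, 66929318 to 66969640) had values of 10.81, 10.81 and 10.49 in LFD, of 10.45, 10.09 and 9.82 in HFD, and of 10.45 and 10.28 in ob/ob mice. All obese mice lay below all LFD mice, although the margin between LFD replicate 3 and the nearest obese mice was small. The log2 difference of Ndrg1 was -0.58 for HFD against LFD (standard error 0.20, adjusted p = 0.202 with limma) and -0.34 for ob/ob against LFD (standard error 0.22, adjusted p = 0.401 with limma). Ndrg1 was thus opposite in sign to Egln3, Car9, Ankrd37 and Ddit4 in both comparisons with LFD.

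The secreted members, Vegfa and Adm, showed small differences. Vegfa encodes the main growth factor of blood vessels. Vegfa (chromosome 17, 46016993 to 46032369) had rlog values of 9.94, 9.77 and 9.70 in LFD, of 9.90, 10.45 and 9.91 in HFD, and of 9.56 and 9.92 in ob/ob mice. Only HFD replicate 2 lay above the LFD range. The log2 difference of Vegfa was 0.28 for HFD against LFD, with a 95% interval from -0.18 to 0.74, and -0.060 for ob/ob against LFD (0.037 after quantile normalization), with an interval from -0.57 to 0.45. Adm encodes adrenomedullin, a vasodilator peptide. Adm (chromosome 7, 110627661 to 110629820) had values of 5.64, 5.29 and 5.05 in LFD, of 5.20, 5.70 and 5.12 in HFD, and of 5.59 and 4.83 in ob/ob mice. The 3 groups overlapped, and the log2 difference of Adm was 0.011 for HFD against LFD, with an interval from -0.70 to 0.72, and -0.12 for ob/ob against LFD, with an interval from -0.92 to 0.68. The first changed sign after median centring (-0.072) and after quantile normalization (-0.24).

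**Figure D3:**
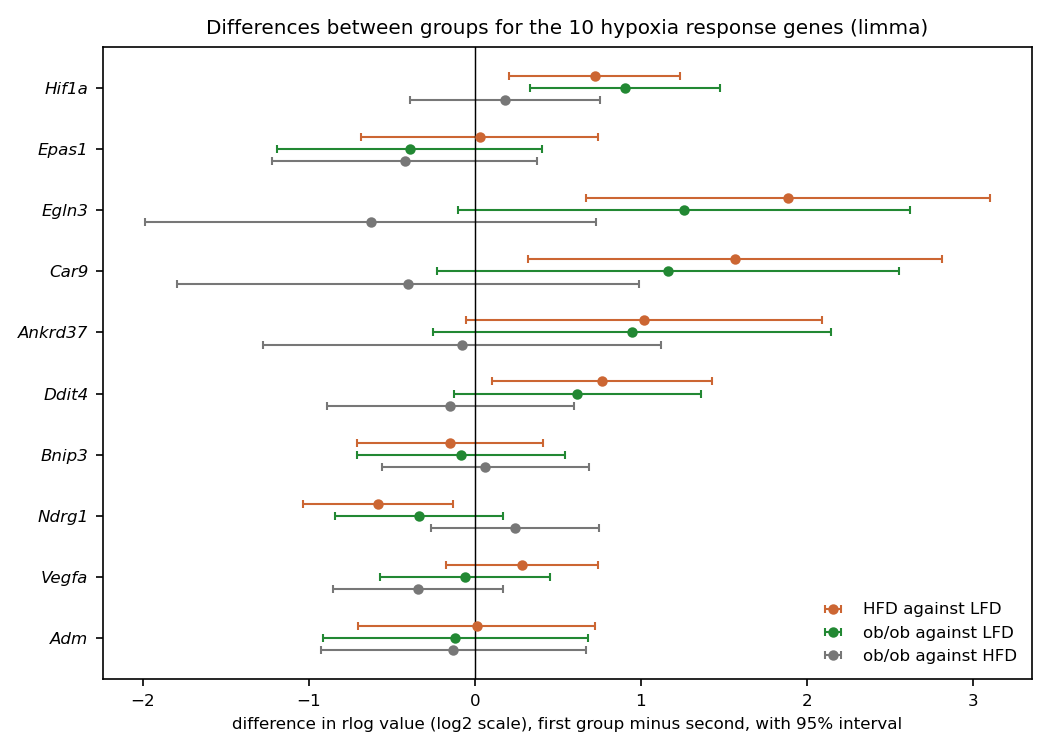
Log2 difference of each gene with its 95% interval from limma, for HFD against LFD (orange), ob/ob against LFD (green) and ob/ob against HFD (gray), with the first group minus the second. For HFD against LFD the intervals of Hif1a, Egln3, Car9, Ddit4 and Ndrg1 leave out 0 before adjustment for the number of genes, and no interval of ob/ob against HFD does.

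Diet-induced and genetic obesity were compared directly. At a nominal p under 0.05 in limma, 0 of the 10 members were called in this comparison, against 3.91% of all genes (2.28% higher and 1.63% lower in ob/ob), and 0 passed after adjustment (0.0% of all genes). The groups overlapped for all 10, where 13.3% of all genes did not overlap (7.92% above and 5.42% below). The largest log2 difference in size was that of Egln3, -0.63, with a 95% interval from -1.99 to 0.73. For Car9 it was -0.40, from -1.79 to 0.99, and for Hif1a it was 0.18, from -0.39 to 0.76. With intervals this wide, the 2 models are not shown to be alike in these genes.

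The calls between HFD and LFD depended on HFD replicate 1. Without it, 5 members (Hif1a, Egln3, Car9, Ddit4 and Ndrg1) passed an adjusted p of 0.05 in limma, from 0.0158 for Car9 to 0.0297 for Ndrg1, but so did 2812 genes, 18.7% of the table. The log2 differences were then 2.21 for Car9, 2.30 for Egln3, 0.92 for Hif1a, 1.04 for Ddit4 and -0.75 for Ndrg1. The count of members at a nominal p under 0.05 fell from 5 to 2 without LFD replicate 1 and to 3 without HFD replicate 2 or HFD replicate 3, while the share over all genes went from 19.8% to 12.9%, 9.84% and 10.6%. With the mean of the acinar markers as a covariate, 2 members (Hif1a and Egln3) kept a nominal p under 0.05 for HFD against LFD, where 10.7% of all genes had one. The log2 differences in that fit were 0.38 for Hif1a, 1.17 for Egln3, 1.10 for Car9, 0.67 for Ddit4, 0.44 for Ankrd37 and -0.36 for Ndrg1. The ob/ob differences from LFD in that fit were 0.53 for Hif1a, 0.49 for Egln3, 0.65 for Car9, 0.51 for Ddit4, 0.32 for Ankrd37 and -0.10 for Ndrg1, and 1 member (Hif1a) was called, where 10.0% of all genes were. Without HFD replicate 3 and ob/ob replicate 2, the 2 mice lowest in acinar markers, an alternative chosen after seeing the data, 3 members (Egln3, Hif1a and Ddit4) had a nominal p under 0.05 for HFD against LFD, where 13.6% of all genes had one. The log2 differences were then 1.85 for Egln3, 0.53 for Hif1a, 0.79 for Ddit4, 1.42 for Car9, 0.99 for Ankrd37 and -0.43 for Ndrg1. For HFD against LFD all 6 held their sign in both fits, and 5 of them (all except Ddit4) were smaller in size than with all mice and no covariate in both.

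The machinery that controls HIF was counted next. Of 17 listed genes, all in the table, 0 had a nominal p under 0.05 for HFD against LFD in limma. For ob/ob against LFD, 2 (Egln2 and Cited2) were lower and 0 higher. Over all genes the shares were 11.5% higher and 8.35% lower for HFD and 11.6% and 7.18% for ob/ob. The median log2 differences of the 17 were -0.027 and -0.10. Arnt, the partner of both alpha subunits, had a log2 difference of -0.049 for HFD against LFD (standard error 0.18). Vhl, which targets the alpha subunits for degradation, had -0.0061 (standard error 0.19), and Egln1, the main prolyl hydroxylase, had -0.13 (standard error 0.17). The third hydroxylase, Egln2, had log2 differences of -0.44 for HFD and -0.56 for ob/ob against LFD (adjusted p = 0.275 and 0.255 with limma), opposite in sign to those of Egln3. Cited2, which competes with HIF for its coactivators, had a log2 difference of -0.999 ± 0.33 SE for ob/ob against LFD (limma adjusted p = 0.216) and of -0.027 for HFD against LFD. After adjustment, 0 of the 17 passed in either comparison.

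Other HIF targets were counted in lists that do not contain the 10 members. Of 23 targets in glucose metabolism, 20 had a higher mean in HFD than in LFD, as had 7879 of all 15047 genes. At a nominal p under 0.05, 6 were higher and 1 (Pdk1) was lower, against 11.5% and 8.35% of all genes. The median log2 difference of the 23 was 0.94. Slc16a3, the exporter of lactate, had rlog values of 5.43, 5.31 and 5.71 in LFD, of 6.11, 8.58 and 8.54 in HFD, and of 6.08 and 9.06 in ob/ob mice. Its log2 difference for HFD against LFD was 2.26 (standard error 0.83, adjusted p = 0.215 with limma), and as for Egln3, HFD replicate 1 and ob/ob replicate 1 were the obese mice nearest to LFD. Slc2a3, the glucose transporter GLUT3, had a log2 difference of 1.43 for HFD and 1.45 for ob/ob against LFD (adjusted p = 0.175 and 0.179 with limma). Pdk1, a kinase that inhibits pyruvate dehydrogenase, had -0.83 for HFD against LFD, and Pgk1, a glycolytic enzyme, had 0.94. In ob/ob mice, 21 of the 23 had a higher mean than in LFD, as had 7988 of all 15047 genes. At a nominal p under 0.05, 3 were higher and 0 were lower, against 11.6% and 7.18% of all genes. The median log2 difference of the 23 was then 0.69.

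Of 37 other HIF targets found among 40 listed, 10 had higher and 3 had lower levels in HFD than in LFD at a nominal p under 0.05. For ob/ob against LFD the counts were 11 and 2. Over all genes the shares were 11.5% higher and 8.35% lower for HFD and 11.6% and 7.18% for ob/ob. The median log2 difference of the 37 was 0.28 in both comparisons. Lox, which cross-links collagen, had a log2 difference of 1.80 for HFD (standard error 0.33) and 2.48 for ob/ob (standard error 0.37), each against LFD, and limma gave adjusted p = 0.169 and 0.137. Vldlr and Rora, a lipoprotein receptor and a nuclear receptor, had -0.98 and -1.04 for HFD against LFD. Among 13 receptors and partners of VEGF and adrenomedullin, 0 were higher and 1 (Nrp1, a VEGF coreceptor) was lower in HFD at a nominal p under 0.05. The log2 difference of Nrp1 was -0.43 (adjusted p = 0.226 with limma). In ob/ob mice, 1 of the 13 was higher and 1 was lower than in LFD at that level. The shares over all genes are those given above. After adjustment, 0 genes of these 3 lists passed 0.05 against LFD.

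**Figure D4:**
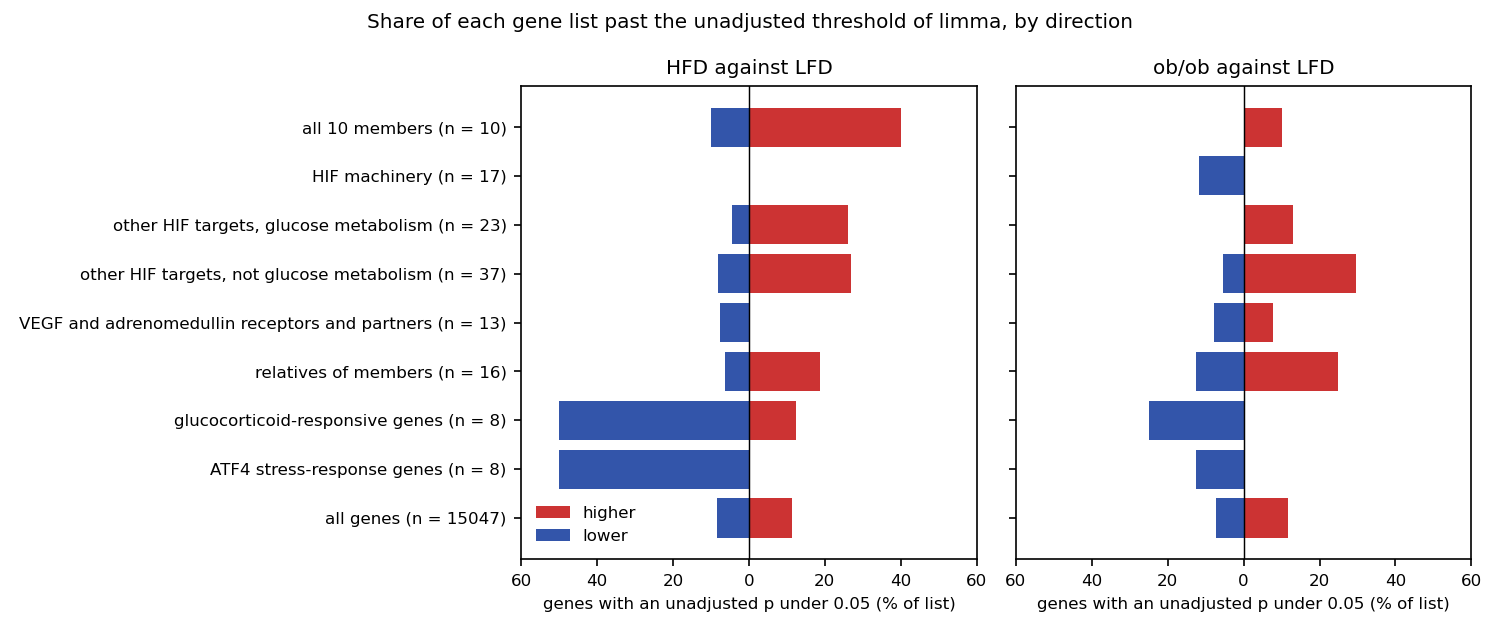
Share of each gene list at a nominal p under 0.05 in limma (percent of the list), with genes higher than in LFD to the right in red and lower genes to the left in blue, for HFD (left panel) and ob/ob (right panel). The bottom bar is the share over all genes, beside which the lists are to be read. It is 11.5% higher and 8.35% lower for HFD, and 11.6% higher and 7.18% lower for ob/ob. In the HFD panel the ATF4 list has bars to the left alone and the HIF machinery list has none.

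Genes of the glucocorticoid and ATF4 responses were counted as well. Of 8 glucocorticoid-responsive genes, 1 (Errfi1) was higher and 4 were lower in HFD than in LFD at a nominal p under 0.05. The shares over all genes were 11.5% and 8.35%, and the median log2 difference of the 8 was -0.57. For HFD against LFD, Per1, which is also a clock gene, had a log2 difference of -1.10 ± 0.23 SE (limma adjusted p = 0.175). Zbtb16 and Klf9 had -1.46 and -0.73. In ob/ob mice, 0 of the 8 were higher and 2 were lower than in LFD, against 11.6% and 7.18% of all genes, with a median of -0.30. Of 8 genes of the ATF4 stress response, 0 were higher and 4 were lower in HFD by the same measure, with a median of -0.36. For ob/ob against LFD, 0 of them were higher and 1 was lower, with a median of -0.35. Atf4 itself had a log2 difference of -0.78 for HFD (standard error 0.23) and of -0.85 for ob/ob, each against LFD (limma adjusted p = 0.183 and 0.204), and Asns, Chac1 and Psat1 had -1.60, -1.52 and -0.91 for HFD.

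Relatives of the members were counted last. Of 16 relatives found among 22 listed, 3 had higher and 1 had lower levels in HFD than in LFD at a nominal p under 0.05. Over all genes these shares were 11.5% and 8.35%. For ob/ob against LFD the counts were 4 and 2, against 11.6% and 7.18% of all genes. Car2, the cytosolic carbonic anhydrase of duct cells, had a log2 difference of 1.58 for HFD against LFD but of -0.40 for ob/ob against LFD, whereas that of Car9 was positive in both. Bnip2 had 0.66 and 0.94 and Car4 had 0.85 and 0.18 in the same comparisons, and Adm2, a peptide related to adrenomedullin, had -1.76 and -1.52, all with adjusted p-values above 0.05 in limma.

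Group means of cell type markers also differed between obese and LFD mice, but 0 markers passed an adjusted p of 0.05 in limma (0.0% of all genes). Each of the 26 acinar markers had a lower mean in HFD and in ob/ob than in LFD. In each comparison 1 of the 26 was lower at a nominal p under 0.05, against 8.35% and 7.18% of all genes. The mean rlog value of the acinar markers in HFD replicate 1, 17.62, lay within the LFD range of 17.35 to 17.75. Over all 15047 genes, 7879 had a higher and 7168 a lower mean in HFD than in LFD. For ob/ob against LFD these numbers were 7988 and 7059, and the counts of markers are to be read beside them. Of the summed linear values, fibroblast markers made up 0.0186% to 0.0326% in LFD, 0.0337% to 0.455% in HFD and 0.0768% to 0.547% in ob/ob mice, and 8 and 10 of the 10 genes had a higher mean in HFD and in ob/ob than in LFD. The 10 macrophage markers made up 0.0158% to 0.0317%, 0.0306% to 0.204% and 0.0775% to 0.482%, with 9 and 10 genes higher. The neutrophil markers, of which 7 of 8 were in the table, made up 0.000505% to 0.00103%, 0.00149% to 0.0305% and 0.00266% to 0.00769%, with all 7 higher in both. The 10 ductal markers made up 0.0204% to 0.0285%, 0.0273% to 0.262% and 0.0507% to 0.209%, with 7 and 4 genes higher. The 10 endothelial markers, which matter for Epas1, made up 0.00262% to 0.00528%, 0.00346% to 0.0311% and 0.00763% to 0.0157%, with 7 and 6 genes higher. Their mean rlog values overlapped between groups, at 7.33 to 7.82 in LFD, 7.57 to 8.09 in HFD and 7.27 to 7.99 in ob/ob mice. The median log2 differences of these 10 genes from LFD were 0.14 for HFD and 0.023 for ob/ob. Of the remaining lists, 7 and 6 of 8 pericyte and smooth muscle genes, 3 and 4 of 8 lymphocyte genes, 0 and 8 of 10 islet genes, 4 and 5 of 8 adipocyte genes and 5 and 0 of 5 red blood cell genes had a higher mean in HFD and in ob/ob than in LFD. The lowest mean rlog value of a listed marker found in the table was 3.18, for Cd3e. The lowest value over all genes and mice was 0.47, so a value above 0 does not show that a marker was detected. These shares are parts of 1 sum, so a share can rise where the level of its markers does not. Only the fit with the acinar covariate and the fit without the 2 mice lowest in acinar markers bear on the cell makeup. Beyond those fits, the part of the cell makeup in the differences of Egln3, Car9 and Hif1a was not tested. Which cells carried these transcripts cannot be told from bulk tissue.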

How the data were processed

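Pancreas RNA of 8 mice was sequenced, and samples were grouped by their labels. The authors quantified transcripts with Salmon 0.11.3 (Gencode M18, GRCm38.p6), summed them per gene with tximport, applied the rlog function of DESeq2 1.22.2 and deposited the resulting log2 values, in which library size is already accounted for. The filter behind the 15047 genes is not given in the sources used here. Without counts the depth is unknown, and neither counting errors nor count tests could be given.

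Group differences were fitted on the whole table with limma 3.58.1 in R 4.3.3 (8 mice, 1 mean per group, a variance trend) and adjusted with the Benjamini-Hochberg method over all genes. The fit was tested on simulated data. Replicates are mice numbered in the labels. The members and lists were chosen with earlier results of these data known. All members are named. From other lists the 2 largest and 2 smallest differences between HFD and LFD with a nominal p-value under 0.05 were named, and any gene of the HIF machinery. A gene that this rule names and an allele of the graft are not reported here. Ufsp2 was added for its overlap. Coordinates are those of Gencode M21 (GRCm38), in which all 10 members were found. Other settings tried were a fit with no variance trend, a fit of only the pair of groups, a mean rlog value of at least 5, median centring, quantile normalization, the replicate block, an acinar covariate, and leaving out mice.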

Additional observations from a re-analysis of the deposited data

How the results depend on the processing

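The number of members at a nominal p under 0.05 in limma was 5 between HFD and LFD, 1 between ob/ob and LFD and 0 between ob/ob and HFD. Between HFD and LFD it was 2 with the acinar covariate (10.7% of all genes, against 19.8% without it), and 3 without the 2 mice lowest in acinar genes (13.6%), an alternative chosen after seeing the data. Without HFD replicate 2 (9.84% of all genes) or HFD replicate 3 (10.6%), 3 members were called there. Leaving out each mouse in turn gave 2 (without LFD replicate 1, 12.9%) to 6 members there (such as without HFD replicate 1, 36.2%). For ob/ob against LFD it gave 0 (without ob/ob replicate 2, 5.0% of all genes, against 18.8% with all mice) to 4 (without HFD replicate 1, 27.1%, or ob/ob replicate 1, 25.6%), with 2 without HFD replicate 2 (16.1%). For ob/ob against HFD it gave 0 to 1, the 1 without HFD replicate 1 (6.56% of all genes, against 3.91% with all mice), ob/ob replicate 1 (7.42%) or ob/ob replicate 2 (2.45%). Members with an adjusted p-value under 0.05 numbered 0 to 5 between HFD and LFD, the 5 without HFD replicate 1, and 0 in the other comparisons under every alternative run. When only ob/ob and LFD were fitted, 4 members were called at a nominal p under 0.05, as were 26.1% of all genes. For ob/ob against HFD it was 1 (Egln3) without the 2 mice lowest in acinar genes (2.29% of all genes). With the filter on low values 9 of 10 members were tested, as Ankrd37 did not pass. The cause of these changes was not tested.

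With the replicate number as a block (replicate block), 5, 3 and 0 members were called at a nominal p under 0.05 for HFD against LFD, ob/ob against LFD and ob/ob against HFD, and 0 after adjustment. The shares of all genes called at that level under the block were 21.6%, 21.6% and 3.1%. Deviations from group means correlated with r = -0.281 to 0.592 for the 7 pairs of mice with the same number. For the 14 pairs with different numbers r was -0.592 to 0.440. Not every mouse correlated best with its own number. The ob/ob mice deviate from their group mean by equal and opposite amounts, so the pairs are not independent and no conclusion is drawn from these ranges. Whether mice with the same number share more than the number was not tested.

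The sign of small differences changed with the processing. Between HFD and LFD, Epas1 was at -0.052 and Adm at -0.072 after median centring, and Adm at -0.24 after quantile normalization. Between ob/ob and LFD, Vegfa was at 0.037 after quantile normalization and Adm at 0.072 with the acinar covariate. Without the 2 mice lowest in acinar genes, Epas1 was at -0.20 and Bnip3 at 0.067 for HFD against LFD, Epas1 at 0.10 and Adm at 0.26 for ob/ob against LFD, and Epas1 at 0.30, Adm at 0.14 and Bnip3 at -0.37 for ob/ob against HFD. On leaving out each mouse in turn, the log2 differences for HFD against LFD went from -0.20 to 0.19 for Epas1, from -0.17 to 0.17 for Adm and from -0.38 to 0.067 for Bnip3. For ob/ob against LFD they went from -0.24 to 0.12 for Vegfa, from -0.50 to 0.26 for Adm, from -0.31 to 0.14 for Bnip3 and from -0.89 to 0.10 for Epas1. For ob/ob against HFD they went from -0.022 to 0.38 for Hif1a, from -0.92 to 0.074 for Epas1, from -0.51 to 0.25 for Adm, from -1.57 to 0.31 for Egln3, from -1.04 to 0.10 for Car9, from -0.16 to 0.29 for Bnip3, from -0.82 to 0.67 for Ankrd37 and from -0.42 to 0.16 for Ddit4. Egln3, Car9, Hif1a, Ankrd37 and Ddit4 kept a positive and Ndrg1 a negative sign against LFD under every alternative run.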
